A study of Mus musculus with 7 samples.

Results

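The receptors through which colony-stimulating cytokines act on marrow progenitors were examined in lineage depleted (lin-) bone marrow cells of mice with and without the chromatin reader HRP-2. The set was a list of 9 genes, *Csf1r*, *Csf2ra*, *Csf2rb*, *Csf2rb2*, *Csf3r*, *Il3ra*, *Il6ra*, *Il6st* and *Epor*, taken by symbol from the 25033 gene symbols counted, and all 9 were found and passed the filter on low counts. RNA came from 3 wild type mice (Hrp2+/+) and 4 knockout mice (Hrp2-/-) aged 6 to 8 weeks, 1 library per mouse. The knockout carried the tm1b allele of *Hdgfrp2* (listed as *Hdgfl2* in the files) on the C57BL/6N strain in all tissues, so that cells outside the marrow lacked HRP-2 as well. Both genotypes went through the same depletion of cells with mature lineage markers after lysis of red blood cells, and RNA was taken from cells that were extracted instead of being put in culture. The study plated such cells in a myeloid colony assay, whose growth factors act through receptors of this kind, and the question here was whether their messenger levels differed between the genotypes.

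Colony-stimulating cytokines act through receptors of different build. CSF-1 binds *Csf1r*, a receptor tyrosine kinase of the monocyte and macrophage lineage. The others are type I cytokine receptors, which have no kinase of their own and signal through bound Janus kinases and STAT proteins. GM-CSF and IL-3 each use a ligand-specific alpha chain, encoded by *Csf2ra* and *Il3ra*, together with the common beta chain encoded by *Csf2rb*. Mice have in addition *Csf2rb2*, a beta chain that serves IL-3 alone. *Csf3r* binds G-CSF and supports granulocyte growth. *Il6ra* binds IL-6 and pairs with the signalling chain gp130, encoded by *Il6st*, which other cytokines of the IL-6 family share. *Epor* binds erythropoietin and is needed for the late growth of erythroid precursors.

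The position of a gene decides what its reads can tell. *Csf2rb* (ENSMUSG00000071713, chromosome 15 of GRCm38, 78325752 to 78353847, plus strand) and *Csf2rb2* (ENSMUSG00000071714, chromosome 15, 78282507 to 78305721, minus strand) are neighbours on opposite strands with 20030 bases between them. Their longest protein-coding transcripts in GENCODE M21, of 4900 and 4740 bases, each had 518 windows of 75 bases, the read length, that also occurred in a transcript of the other gene, which is 10.7% of the windows of *Csf2rb* and 11.1% of those of *Csf2rb2*. In the last 500 bases, where reads from a 3′ end library are expected, 0 of 426 windows were shared. No other pair of receptor genes shared a window (0 of 70 ordered pairs). *Csf2ra* (ENSMUSG00000059326) lies on chromosome 19 from 61223957 to 61228429 on the minus strand, and *Epor* (ENSMUSG00000006235) on chromosome 9 from 21958897 to 21963506 on the minus strand. No other annotated gene overlapped *Csf2ra*, *Csf3r*, *Il6st* or *Epor*. On the same strand, exons of *Csf2rb* and *Csf2rb2* were overlapped by the microRNA genes *Mir7676-2* and *Mir7676-1*. Exons on the other strand overlapped *Csf1r* (*Hmgxb3*), *Il3ra* (*Gm48860*) and *Il6ra* (*Gm42809*). Since the strand counted is not stated, reads of these 3 genes within the overlapped stretches cannot be told from those of their antisense partners. The extent of the overlap was not measured.

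Promoter sequences, from 250 bases before to 50 bases after the annotated start, were found for 7 of the 9 genes among RefSeq promoters of GRCm38.p6. They were searched on both strands for GAGGAA and AGGAAG, the purine-rich core bound by PU.1 and other ETS factors, and for GATAA, the core bound by GATA factors. The first pair of motifs overlap each other. GAGGAA was found in 4 of the 7 promoters, against 28.3% of 32851 promoters. AGGAAG was found in 5 of the 7, against 35.4%, and GATAA in 3 of the 7, against 25.4%. TTGCNNAA, a C/EBP motif, was found in 1 of the 7, against 10.8%. Of these, 3 are shown because they belong to the receptor whose levels separated the genotypes (*Csf2ra*), the granulocyte receptor (*Csf3r*) and the erythroid receptor (*Epor*). Capitals mark the purine motifs and the GATA motif on either strand.
Csf2ra, chr19:61228369-61228668, minus strand: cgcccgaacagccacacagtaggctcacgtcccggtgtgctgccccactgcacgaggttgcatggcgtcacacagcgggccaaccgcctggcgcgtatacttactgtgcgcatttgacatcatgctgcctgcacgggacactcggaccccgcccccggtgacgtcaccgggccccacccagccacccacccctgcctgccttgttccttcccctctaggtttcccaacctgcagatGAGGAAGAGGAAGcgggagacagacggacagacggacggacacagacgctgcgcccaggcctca
Csf3r, chr4:126024409-126024708, plus strand: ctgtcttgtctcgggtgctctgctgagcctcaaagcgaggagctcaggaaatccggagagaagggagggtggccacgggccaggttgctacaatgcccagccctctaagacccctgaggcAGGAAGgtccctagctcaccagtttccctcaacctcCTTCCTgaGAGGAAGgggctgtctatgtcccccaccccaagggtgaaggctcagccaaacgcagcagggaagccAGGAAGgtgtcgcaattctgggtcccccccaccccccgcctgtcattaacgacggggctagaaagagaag
Epor, chr9:21963527-21963826, minus strand: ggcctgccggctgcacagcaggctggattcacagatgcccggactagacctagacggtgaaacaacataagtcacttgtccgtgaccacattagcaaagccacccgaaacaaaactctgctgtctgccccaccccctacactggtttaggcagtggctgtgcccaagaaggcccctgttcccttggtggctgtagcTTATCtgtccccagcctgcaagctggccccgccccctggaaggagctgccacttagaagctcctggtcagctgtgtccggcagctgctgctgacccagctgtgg
The *Csf2ra* window held GAGGAA 2 times and AGGAAG 2 times in a single purine run just before the annotated start. The *Csf3r* window held AGGAAG 4 times and GAGGAA 1 time, with no GATAA. The *Epor* window held GATAA 1 time and neither purine motif. A match is a stretch of letters and says nothing of binding in these cells.

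The libraries held from 3525665 to 5605158 reads on genes, so that the floor of 3 reads corresponded to 0.561 to 0.840 CPM (counts scaled to a common library size with TMM factors), a limit that covers counting error only. *Hdgfl2* was read 156 to 228 times in each wild type library and 2 to 13 times in each knockout library. This was a log2 fold change of −5.09 with a standard error of 0.34 and an edgeR adjusted p of 1.38e-07. The progenitor genes *Kit* (85.1 to 122 CPM) and *Cd34* (185 to 284 CPM) were present in every library, and the B cell gene *Cd79a* (0.777 to 3.36 CPM) was close to the floor. Granulocyte genes were nonetheless abundant, with *S100a9* between 2703 and 9388 CPM. There were 2 libraries that stood apart. Knockout replicate 3 had 104 CPM of the Y-linked gene *Ddx3y* and 0.561 CPM of *Xist*, against at most 0.777 and at least 229 CPM in the other 6 mice. By these genes it was male and the other 6 mice female, though the labels give no sex. Sex was thus not balanced between the genotypes. Knockout replicate 4 had 518 CPM of the collagen gene *Col1a1*, against at most 34.9 CPM elsewhere. The ribosomal precursor *Rn45s* took from 4.94% (knockout replicate 1) to 20.6% (wild type replicate 2) of the reads on genes.

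No receptor gene passed the test between the genotypes. The test covered 11265 genes, of which 2, or 0.0178%, fell under the adjusted p of 0.25 that the study used (0.00888% higher and 0.00888% lower in the knockout), and none of the 9 receptors was among them (edgeR adjusted p = 0.999 for each). DESeq2 and limma-voom likewise called 0 of the 9. At an unadjusted p-value under 0.05 there was 1 receptor gene by edgeR, *Csf2ra*, 1 by DESeq2 and 0 by limma-voom, where 3.63% of all genes passed that limit by edgeR. In number, 5 receptors had a fold change above 0 and 4 below. Their median log2 fold change was 0.10, against −0.0014 over all genes tested. It was 0.017 with limma-voom, 0.058 with the replicate number as a block, 0.028 without wild type replicate 2, 0.059 without knockout replicate 3, 0.069 without knockout replicate 4 and 0.19 without wild type replicate 1.

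**Figure D1:**
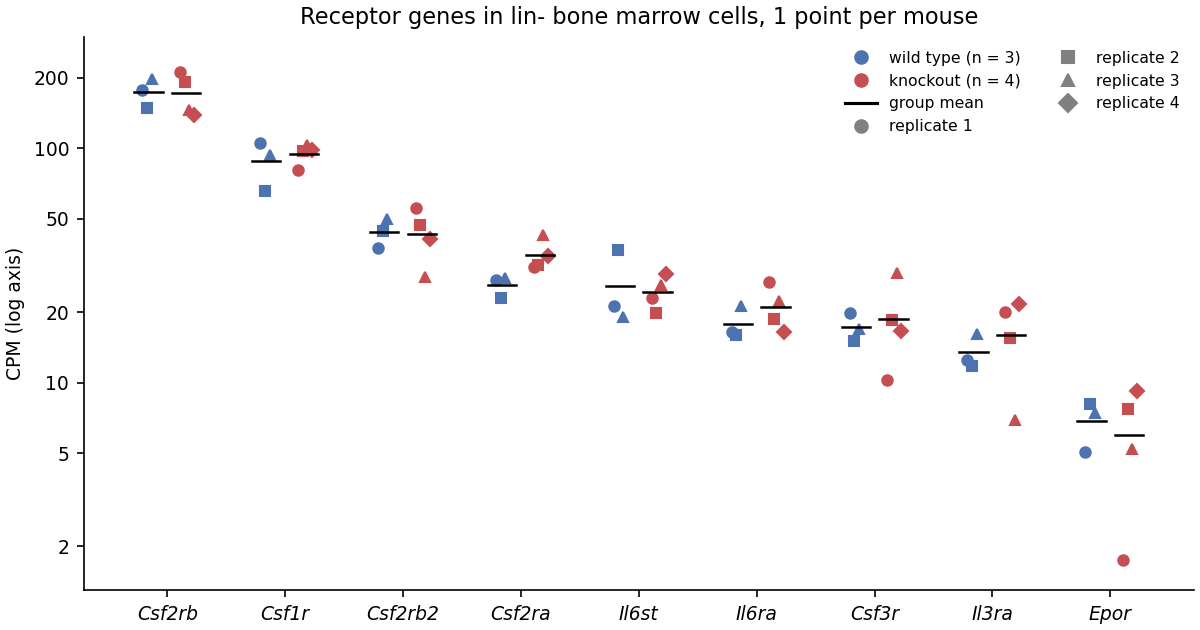
Levels of the 9 receptor genes in CPM on a log axis, 1 point per mouse, with wild type in blue (n = 3), knockout in red (n = 4), a marker shape for each replicate number and a black line at each group mean. The points of the genotypes interleave for every gene except *Csf2ra*, whose 4 knockout mice (31.3 to 42.6 CPM) lie above the 3 wild type mice (22.96 to 27.9 CPM).

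The receptors differed far more from each other than between the genotypes. Because 1 fragment is made per transcript from its 3′ end, the CPM of different genes were compared without division by length. *Csf2rb* stood first, with a mean of 173 CPM over the 7 mice (SD 28.9), and ranked 989 among all genes. *Csf1r* came next at 92.3 CPM (SD 14.1), and the ranges of these 2 genes did not overlap. *Csf2rb2* followed at 43.5 CPM (SD 8.91), again with no overlap with *Csf1r*. Together *Csf2rb* and *Csf1r* gave 62.4% of the summed CPM of the 9 genes, averaged over mice. Below them the order was less firm. *Csf2rb2* was above *Csf2ra* (31.3 CPM, SD 6.28) in 6 of 7 mice, *Csf2ra* above *Il6st* (25.1 CPM, SD 6.35) in 6, and *Il6st* above *Il6ra* (19.8 CPM, SD 4.07) in 5, each with overlapping ranges. *Il6ra* and *Csf3r* (18.1 CPM, SD 5.80) could not be ordered, with *Il6ra* higher in 4 of 7 mice, and *Csf3r* was above *Il3ra* (15.0 CPM, SD 5.06) in 5. *Epor* was the lowest at 6.36 CPM (SD 2.53) and was below *Il3ra* in all 7 mice, although the ranges met. The summed level of the 9 genes was 415 ± 41.0 CPM (n = 3, SD) among wild type and 432 ± 27.5 CPM (n = 4, SD) in knockout cells.

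*Csf2ra*, the GM-CSF alpha chain, was the receptor whose levels separated the genotypes. It stood at 27.4, 22.96 and 27.9 CPM in wild type replicates 1 to 3 and at 31.3, 31.8, 42.6 and 34.9 CPM in knockout replicates 1 to 4. All 4 knockout mice lay above all 3 wild type mice, with knockout replicate 3 the highest. The means were 26.1 ± 2.72 CPM (n = 3, SD) and 35.1 ± 5.22 CPM (n = 4, SD). The log2 fold change was 0.43 (standard error 0.20, 95% interval 0.013 to 0.84), a ratio of 1.35 with an interval of 1.01 to 1.79. The unadjusted edgeR p was 0.0440, rank 357 of the genes tested, and it did not survive adjustment. Among all genes tested, 5.16% had CPM values that did not overlap between the genotypes and 2.37% did so with the knockout higher (2.79% lower), so that 1 receptor of 9 is a count that this share can give. The genotypes did not overlap with plain library sizes or with DESeq2's size factors either. The unadjusted edgeR p was above 0.05 when any 1 of 5 mice was left out, being 0.142 without knockout replicate 3, 0.132 without wild type replicate 2, 0.0632 without wild type replicate 1, 0.0624 without knockout replicate 4 and 0.0561 without wild type replicate 3. The log2 fold change was then 0.32, 0.35, 0.47, 0.43 and 0.48 in the same order.

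The summed markers of 3 other cell types did not overlap between the genotypes either, 1 higher and 2 lower in the knockout. Single genes did so in 5.16% of all genes tested, and no such share was computed for sums. Abundant genes carry most of a sum, *Ly6c2* among the monocyte markers and *Prg2* and *Mcpt8* among the eosinophil, basophil and mast cell markers. Of 6 monocyte markers 5 were higher in the knockout, with 0 called by edgeR and 2 by DESeq2, which called 0.186% of all genes. The summed level of these 6, none at 0, ran from 2249 to 2387 CPM in wild type and from 2633 to 3346 CPM in knockout mice. Among the knockout mice this sum was highest in replicate 2 (31.8 CPM of *Csf2ra*) and lowest in replicate 4 (34.9 CPM). *Ly6c2*, *F13a1* and *Ms4a6c* were highest in replicate 2 and *Ccr2* in replicate 4. *S100a4* and *Fn1* were highest in replicate 3 (580 and 201 CPM), the mouse with the most *Csf2ra* (42.6 CPM). For 12 neutrophil precursor markers, none at 0, the ranges were 16512 to 18858 and 18672 to 34122 CPM, with the highest value in knockout replicate 3. Knockout replicate 1, with the least *Csf2ra* of the knockout mice (31.3 CPM), was second at 22613 CPM. In contrast, all 7 macrophage markers had a fold change below 0 (0 called by edgeR and 1 by DESeq2), though that of *Adgre1* was slight (−0.0098 in log2). They summed to 325 to 393 CPM in wild type and 220 to 281 CPM in knockout mice. The 7 eosinophil, basophil and mast cell markers were lower as well (0 called by edgeR), with sums of 2551 to 2696 and 1776 to 2384 CPM. The sums of the other 7 marker lists overlapped between the genotypes. Their part in the *Csf2ra* values was not tested, and in bulk RNA more cells of a type and more RNA per cell cannot be told apart.

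The beta chains that pair with *Csf2ra* and *Il3ra* did not follow it. *Csf2rb* stood at 179, 148 and 198 CPM in wild type replicates 1 to 3 and at 211, 192, 145 and 139 CPM in knockout replicates 1 to 4. The knockout mice held both the highest and the 2 lowest values. The means were 175 ± 24.97 CPM (n = 3, SD) and 172 ± 35.4 CPM (n = 4, SD), and the log2 fold change was −0.024 (standard error 0.16) with a 95% interval of −0.37 to 0.32. An interval of that width leaves out a change of *Csf2rb* beyond 0.776 to 1.25 times the wild type level. *Csf2rb2* stood at 37.5, 44.5 and 49.95 CPM in wild type and at 55.8, 47.2, 28.4 and 41.1 CPM in knockout mice, in the same order of replicates. Here too the knockout mice gave the highest and the lowest value, with a log2 fold change of −0.028 (standard error 0.21, 95% interval −0.47 to 0.42). Without knockout replicate 3, in which *Csf2rb2* was lowest, it was 0.13.

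The share of *Csf2rb2* in the reads of the paralogs ranged from 16.3% to 23.1%, and the genotypes overlapped. *Csf2rb2* took 17.4% of the reads of both genes in wild type replicate 1 (171 of 985), 23.1% in replicate 2 (159 of 689) and 20.2% in replicate 3 (188 of 933). In knockout replicates 1 to 4 it took 20.9%, 19.7%, 16.3% and 22.8%, of 723 to 1375 reads. The exact Clopper-Pearson 95% intervals, which cover counting error only, were 14.0% to 18.9% for the lowest mouse, knockout replicate 3, and 19.98% to 26.4% for the highest, wild type replicate 2. The mean share was 20.2% ± 2.86 (n = 3, SD) among wild type and 19.9% ± 2.72 (n = 4, SD) in knockout mice, a difference smaller than the spread within either genotype.

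**Figure D2:**
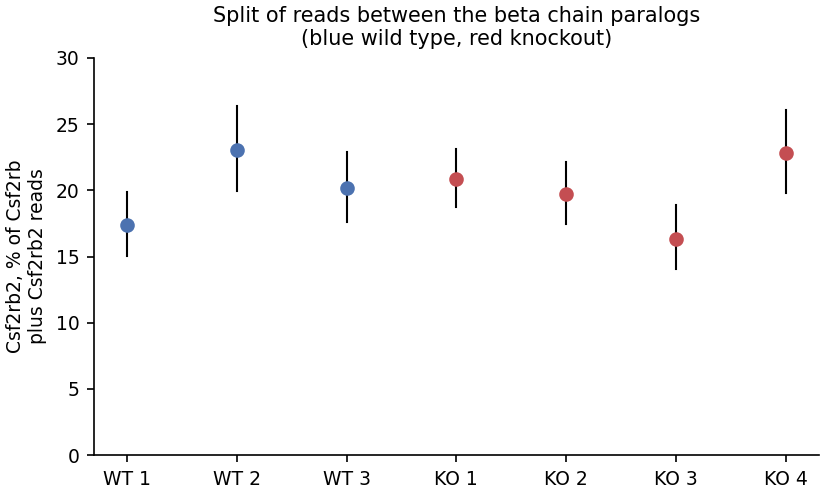
Share of *Csf2rb2* in the reads of *Csf2rb* and *Csf2rb2* together, in percent, for each mouse, with exact 95% binomial intervals as black lines (wild type blue, knockout red). The shares lie between 16.3% and 23.1%, and the genotypes overlap.

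*Il3ra*, the IL-3 alpha chain, varied widely among the knockout mice. It stood at 12.5, 11.8 and 16.2 CPM in wild type mice and at 20.02, 15.6, 6.91 and 21.7 CPM in knockout replicates 1 to 4. Knockout replicate 3 was below every other mouse and 2 knockout mice were above all wild type mice, a spread of 3.14 times between the extremes. The log2 fold change was 0.24 (standard error 0.33, 95% interval −0.45 to 0.94). Without knockout replicate 3 it was 0.50, with an unadjusted p of 0.0845 from the edgeR fit across all genes, and without knockout replicate 4 it was 0.069. The alpha chains therefore did not keep a fixed proportion. *Csf2ra* was 1.56 to 2.19 times *Il3ra* in 6 mice and 6.16 times in knockout replicate 3. The ratio of *Csf2rb* to *Csf2ra* was 6.46 to 7.10 in the wild type mice. In the knockout mice it was 6.76, 6.05, 3.41 and 3.99, and the genotypes overlapped through replicate 1.

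*Csf1r* and *Csf3r*, the receptors of the macrophage and granulocyte growth factors, gave no difference beyond the spread. *Csf1r* stood at 106, 66.1 and 93.5 CPM in wild type mice and at 80.6, 97.9, 104 and 98.4 CPM in knockout mice. All 4 knockout values lay within the wild type range. Its log2 fold change was 0.10 (standard error 0.17, 95% interval −0.25 to 0.45), and without wild type replicate 2, the lowest, it was −0.065. *Csf3r* stood at 19.7, 15.1 and 17.0 CPM in wild type mice and at 10.3, 18.5, 29.3 and 16.7 CPM in knockout mice. The knockout mice again spanned the wild type, from replicate 1 at the bottom to replicate 3 at the top. The log2 fold change was 0.11 (standard error 0.30, 95% interval −0.51 to 0.74), and without knockout replicate 3 it was −0.20. That mouse also had the most reads of the late granule genes *Ngp* (3694 CPM against 815 to 1795 elsewhere) and *Retnlg* (448 CPM against 99.4 to 278). Knockout replicate 1, with the least *Csf3r*, was second for both and the lowest of all mice for the primary granule genes *Mpo* (4746 CPM), *Prtn3* (1003 CPM), *Ctsg* (732 CPM) and *Elane* (441 CPM). In every mouse *Csf1r* was above *Csf3r*, by 3.54 to 7.83 times.

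The IL-6 receptor chains were of like abundance. *Il6ra* stood at 16.5, 15.96 and 21.3 CPM in wild type mice and at 27.0, 18.7, 22.4 and 16.4 CPM in knockout mice. The values of knockout replicates 1 and 3 lay above all wild type values, with a log2 fold change of 0.25 (standard error 0.24, 95% interval −0.26 to 0.76). *Il6st* stood at 21.3, 37.0 and 19.1 CPM in wild type mice and at 22.9, 19.7, 26.2 and 29.2 CPM in knockout mice. Wild type replicate 2 stood above the rest, and the 4 knockout values lay within the wild type range. The log2 fold change was −0.071 (standard error 0.25, 95% interval −0.59 to 0.45), and without wild type replicate 2 it was 0.27. *Il6st* exceeded *Il6ra* in 5 of 7 mice, with ratios from 0.849 to 2.32.

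*Epor* had the fewest reads of the receptors. Its coefficient of variation over the 7 mice was 39.8%, against 19.1% from counting alone. It was read 23, 29 and 28 times in wild type replicates 1 to 3 and 9, 37, 28 and 37 times in knockout replicates 1 to 4. In CPM this was 5.05, 8.12 and 7.44 against 1.75, 7.69, 5.23 and 9.22. Knockout replicate 1 was the low one, and the other 3 knockout mice lay among or above the wild type mice. Its 9 reads carried an exact Poisson 95% interval of 0.800 to 3.32 CPM, which covers counting error only. The log2 fold change was −0.21 (standard error 0.47, 95% interval −1.19 to 0.78), and without that mouse it was 0.11. Of the 7 erythroid markers measured, 5 were lowest in the same library, among them the carbonic anhydrase *Car1* with 3.50 CPM against 22.0 to 73.3 CPM elsewhere and *Klf1* with 2.53 CPM against 2.63 to 20.7 CPM. *Tfrc* (280 CPM) and *Alas2* (6.22 CPM) were lower in wild type replicate 1 (223 and 3.29 CPM) than there. The highest *Car1* and the highest *Epor* were both in knockout replicate 4. The 7 markers summed to 355 to 648 CPM in wild type and 345 to 589 CPM in knockout mice, none at 0, and their part in the *Epor* values was not tested.

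**Figure D3:**
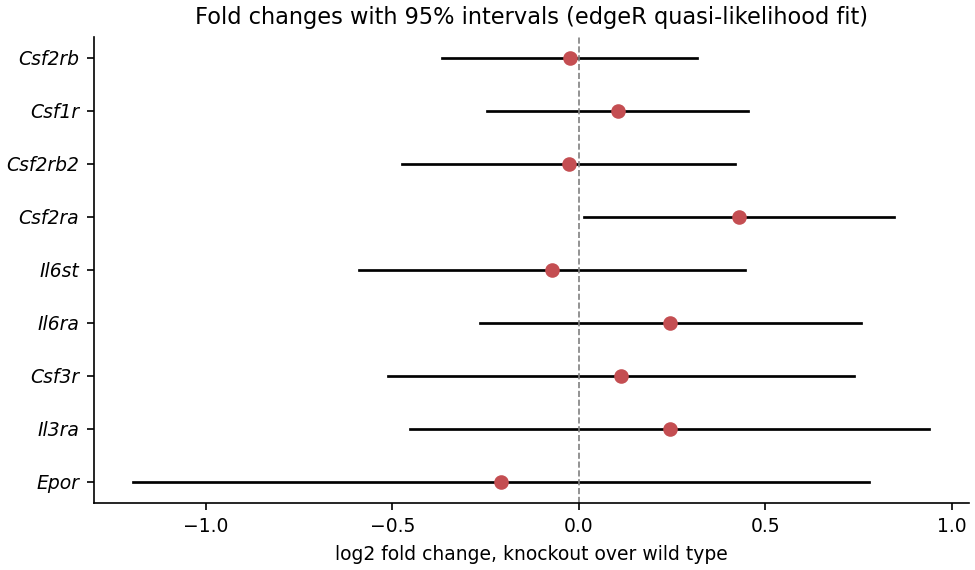
Log2 fold changes, knockout over wild type, of the 9 receptor genes with 95% intervals from the edgeR quasi-likelihood fit, ordered by level. The interval of *Csf2ra* (0.013 to 0.84) lies above 0 and those of the other 8 genes include 0, and *Epor* has the widest.

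The receptors had different profiles over the mice. The coefficient of variation over the 7 mice ran from 15.3% for *Csf1r* to 39.8% for *Epor*. Knockout replicate 3 had the highest *Csf2ra* and *Csf3r* of all mice and the lowest *Csf2rb2* and *Il3ra*. Knockout replicate 1 had the highest *Csf2rb*, *Csf2rb2* and *Il6ra* and the lowest *Csf3r* and *Epor*. Likeness was measured as the root mean square difference of log2(CPM + 1), each gene centred on its own mean, over the 7 mice and 8514 genes. For *Csf2rb* the nearest genes were *Gatd1* (0.028) and *Runx3* (0.037), a runt family transcription factor, while its paralog *Csf2rb2* was at 0.21, rank 1323. Seen from *Csf2rb2* the same pair had rank 316, and *Csf2rb2* had rank 104 for *Il3ra* (0.30). For *Csf2ra* they were *Prkag1* (0.076) and *Hp* (0.078), the latter encoding haptoglobin. For *Csf3r* they were *Cldn15* (0.12) and *Esf1* (0.15), for *Il3ra* *Ino80b* (0.12) and *Clspn* (0.16), and for *Csf2rb2* *Lrrc8a* and *Det1* (both 0.082). *Cap1* and *Commd1* (0.074 and 0.075) were nearest to *Csf1r*, *Neurl1b* and *Setd1b* (0.073 and 0.075) to *Il6ra*, and *Pgls* and *Nsmce1* (0.067 and 0.069) to *Il6st*. With so many genes and 7 mice, close matches arise readily, and these are descriptions of the profiles.

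**Figure D4:**
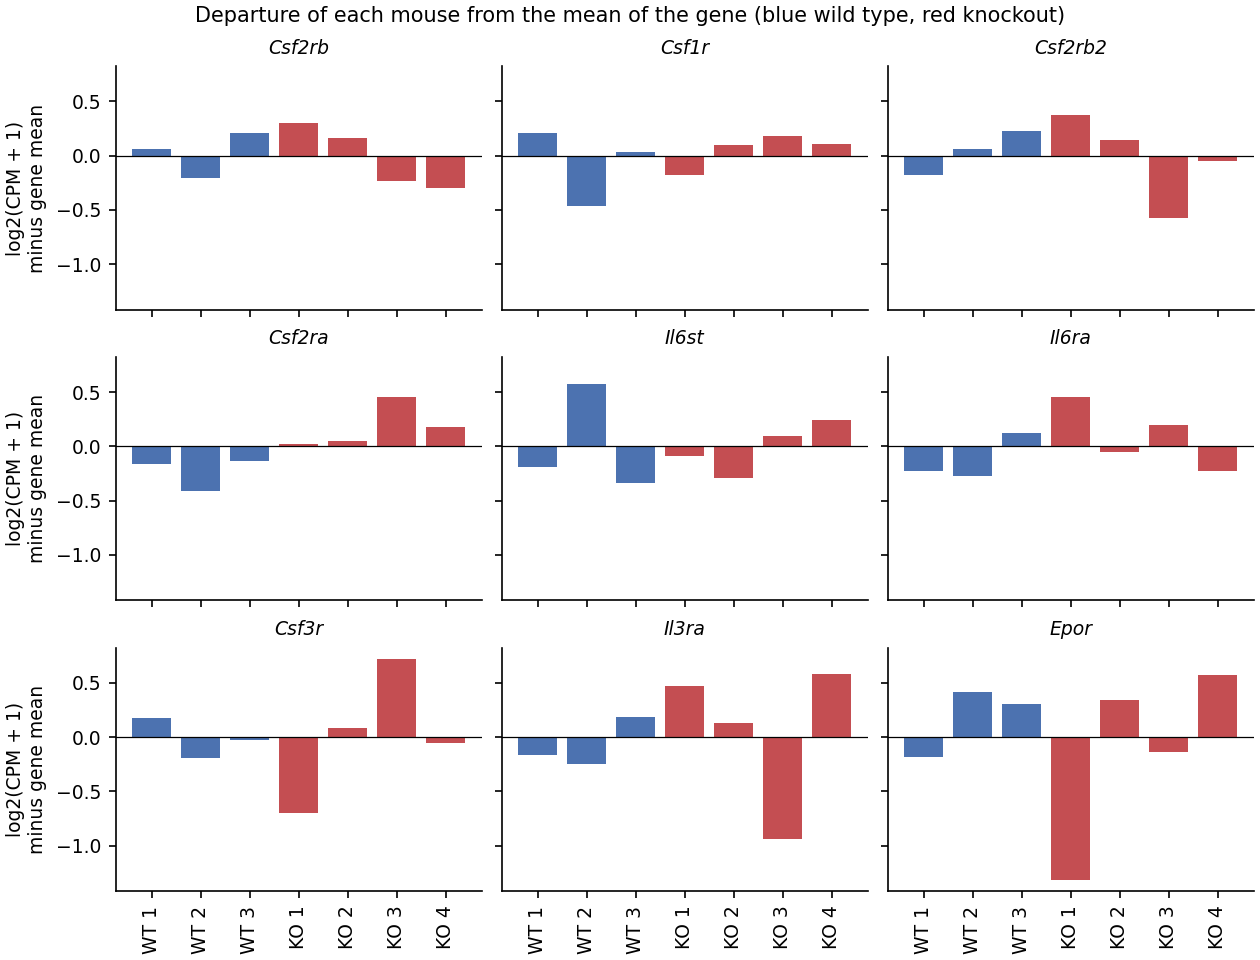
Log2(CPM + 1) of each receptor gene in each mouse minus the mean of the gene over the 7 mice (bars, wild type blue, knockout red). Knockout replicate 3 is high for *Csf2ra* and *Csf3r* and low for *Il3ra* and *Csf2rb2*, and knockout replicate 1 is low for *Csf3r* and *Epor*.

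A library property went with 1 receptor. *Csf2rb* was highest where *Rn45s* took the smallest share of reads (211 CPM at 4.94%, knockout replicate 1) and low in the 3 libraries with the largest shares (145, 139 and 148 CPM at 13.6%, 18.6% and 20.6%). With genotype in the model, *Csf2rb* changed by −0.43 on the log2 scale per 10 percentage points of *Rn45s* (standard error 0.12) with an edgeR adjusted p of 0.131 over all genes. It passed the threshold of 0.25 together with 4.86% of all genes tested (2.44% falling and 2.41% rising with the share) and was the 1 receptor of 9 to do so. None of the 9 was under 0.05, as were 0.0621% of all genes. *Il6st* went the other way (0.54 per 10 points, standard error 0.20) with an edgeR adjusted p of 0.271, which missed the threshold. That share of all genes rests on the mice included, with 547 genes past 0.25 over the 7 mice and from 38 (without wild type replicate 3) to 1334 (without knockout replicate 4) when 1 mouse was left out. The slope of *Csf2rb* stayed between −0.49 and −0.41 without any 1 mouse, but its adjusted edgeR p rose to 0.367 without wild type replicate 2, 0.412 without wild type replicate 3, 0.322 without knockout replicate 1 and 0.258 without knockout replicate 2. That of *Il6st* fell to 0.216 without knockout replicate 4 but rose to 0.771 without wild type replicate 2 and 0.584 without wild type replicate 3. Without any 1 of the other mice it lay between 0.251 and 0.400. The share of *Rn45s* overlapped between the genotypes. With it as a covariate the genotype fold change called no receptor.

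**Figure D5:**
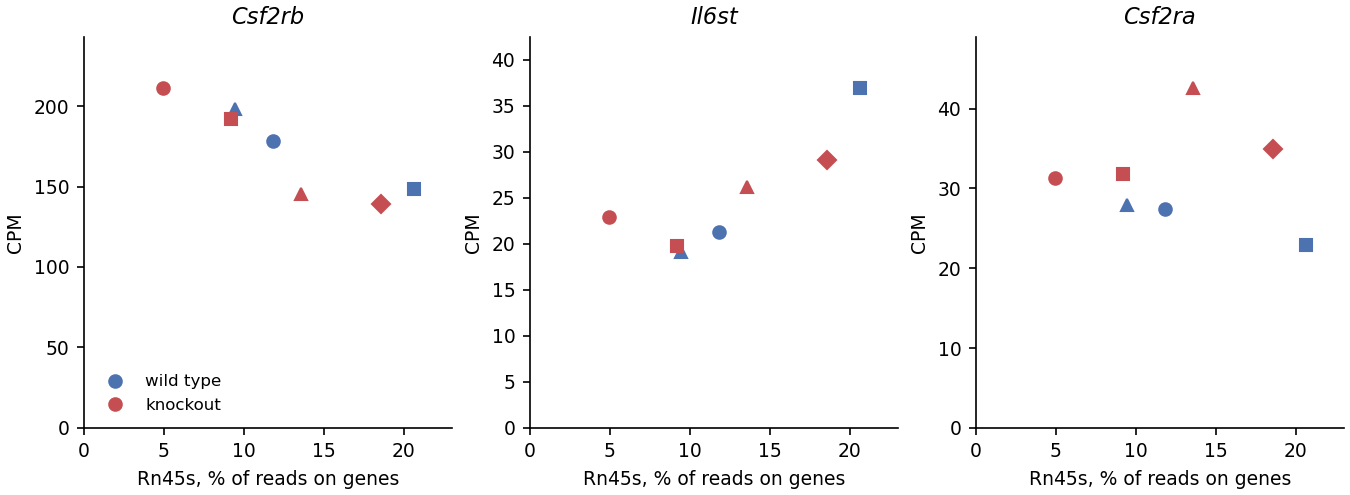
CPM of *Csf2rb*, *Il6st* and *Csf2ra* (vertical axes, from 0) against the share of reads on genes taken by *Rn45s* in percent, 1 point per mouse (wild type blue, knockout red). *Csf2rb* falls from 211 CPM at 4.94% to 148 CPM at 20.6%, *Il6st* is highest at 20.6% with 37.0 CPM, and *Csf2ra* is higher in knockout than in wild type mice over the whole range.

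The other genes of these pathways, taken from lists, gave no call either. Of 14 cytokine genes, *Csf2*, *Csf3*, *Il3*, *Il5*, *Epo* and *Thpo* had no read in any of the 7 libraries, which allows at most the floor of 0.561 to 0.840 CPM in each. Of the 4 that passed the filter 2 were higher and 2 lower. *Csf1*, the ligand of *Csf1r*, stood at 42.3 ± 0.799 CPM (n = 3, SD) among wild type and 33.3 ± 13.6 CPM (n = 4, SD) in knockout mice. *Flt3l* and *Il6* had log2 fold changes of 0.25 (standard error 0.25) and −0.22 (standard error 0.49). *Osm*, an IL-6 family cytokine, was the most abundant ligand, with 131 ± 10.5 CPM (n = 3, SD) and 137 ± 37.8 CPM (n = 4, SD).

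Of 16 signal carriers between receptor and nucleus, all were tested, 0 were called by edgeR, DESeq2 or limma-voom, 2 were higher and 14 lower, with a median log2 fold change of −0.079. At an unadjusted edgeR p-value under 0.05 there were 2 of the 16, against 3.63% of all genes, among them *Sos1*, an exchange factor that activates Ras (log2 fold change −0.52, standard error 0.24). *Jak2*, the kinase used by *Epor* and the beta chains, stood at 77.2 ± 6.16 CPM (n = 3, SD) and 72.01 ± 3.89 CPM (n = 4, SD). *Stat5a* and *Stat5b*, its main substrates, had log2 fold changes of −0.14 and −0.094 (standard errors 0.16 and 0.14). The genotypes overlapped for each of these 3 genes, and none passed the test.

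Among 12 feedback inhibitors and target genes of STAT signalling, 7 were higher and 5 lower with a median log2 fold change of 0.045, and 0 were called by any of the 3 tools or had an unadjusted edgeR p-value under 0.05. *Cbl*, a ubiquitin ligase that takes activated receptors out of service, came first, with 10.5 ± 1.45 CPM (n = 3, SD) and 14.9 ± 1.67 CPM (n = 4, SD). Its genotypes did not overlap, as was so for 5.16% of all genes. *Cish*, a standard readout of STAT5 activity, stood at 11.9 ± 2.14 and 12.3 ± 2.47 CPM (SD, n = 3 and n = 4). *Pias1* and *Pim1* had log2 fold changes of −0.26 and −0.22 (standard errors 0.19 and 0.17).

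For comparison, of 26 other cytokine receptors 23 were tested, 5 were higher and 18 lower, with a median log2 fold change of −0.20. None was called by edgeR, DESeq2 or limma-voom, and 2 of the 23 had an unadjusted edgeR p-value under 0.05, against 3.63% of all genes. They were the IL-18 receptor gene *Il18r1* (42.9 ± 3.64 CPM, n = 3, SD, against 24.5 ± 6.61 CPM, n = 4, SD) and the interferon receptor gene *Ifnar1* (52.1 ± 7.66 against 40.1 ± 3.05 CPM), both without overlap of the genotypes, as were 5.16% of all genes. *Kit*, the receptor for stem cell factor that colony assays also rest on, stood at 112 ± 11.1 CPM (n = 3, SD) and 95.4 ± 8.67 CPM (n = 4, SD), a log2 fold change of −0.23 (standard error 0.14). *Il5ra*, the third alpha chain that uses *Csf2rb*, was under the filter, with 1.56 CPM in wild type and 0.947 CPM in knockout mice on average. No test of the receptor set against these others was made.

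Of 10 transcription factor genes known to act on receptor genes, 5 were higher and 5 lower (median log2 fold change 0.0035), with 0 called by the 3 tools and 0 at an unadjusted edgeR p-value under 0.05. *Spi1*, which encodes PU.1, stood at 149 ± 4.42 CPM (n = 3, SD) and 167 ± 5.72 CPM (n = 4, SD), without overlap, as were 5.16% of all genes. Its log2 fold change was 0.17 (standard error 0.13, unadjusted edgeR p 0.199). *Gata1*, *Runx1* and *Gata2* had the smallest p-values, with log2 fold changes of −0.52, −0.20 and −0.39 (standard errors 0.31, 0.14 and 0.26).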

How the data were processed

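Bulk mRNA was measured in 7 libraries of lin- bone marrow cells. According to the methods of the study, the authors made 3′ end libraries with oligo(dT) priming, read them as 75 bp single reads, aligned them to GRCm38 with STAR and quantified genes on Ensembl annotation. FastQC, STAR and DESeq2 are named in the submitters' processing notes. The deposited values are counts, whole numbers of reads per gene symbol without normalization. The 5 tally rows of each file were left out. Reads on no gene made up 27.0% to 31.6% and ambiguous reads 1.99% to 2.40% of all reads. The strand counted is not given in the sources used here.

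Counts were scaled with TMM factors in edgeR 4.0.16 (R 4.3.3), filtered with filterByExpr and tested with glmQLFit (robust) and glmQLFTest, genotype being the only term. P-values were adjusted by Benjamini-Hochberg over the 11265 genes kept. CPM used the same factors. Standard errors are the log2 fold change divided by the root of F, and the 95% intervals use the fit's degrees of freedom. On simulated counts of 11093 genes the test at an adjusted p under 0.25 found 80 of the 100 genes given a log2 change of 1 and 98 of the 100 given 2, and 45 of its 223 calls were false. So many changed genes loosen the adjusted cutoff, so these rates do not carry over to a comparison with 2 calls. Here *C1qc*, with a log2 fold change of −1.00, was not called (edgeR adjusted p 0.322). Alternatives were DESeq2 1.42.0, limma-voom (limma 3.58.1), other scalings and filters, the replicate number as a block, the share of *Rn45s* as a covariate, the omission of *Rn45s* and of each mouse. The slope on *Rn45s* and the check of non-overlap under other scalings were chosen after seeing the data. Members and lists were chosen with earlier results of these data known. The genes named are the receptors, *Hdgfl2*, *Rn45s*, the 3 genes of each list with the smallest p (some signal carriers are not reported here), cell type markers and, for receptors of at least 10 CPM on average, the 2 nearest genes. *Jak2*, *Stat5a*, *Stat5b*, *Cish*, *Osm*, *Il5ra*, *Spi1*, *Ddx3y* and *Xist* were named after their values were seen. Same-numbered mice are different animals and were not treated as pairs. Within a genotype, each pair of libraries was further apart than sampling noise (chi-square per degree of freedom from 7.80 to 48.9). Gene positions are those of GENCODE M21 on GRCm38, and promoter sequences those of RefSeq on GRCm38.p6, chromosome 18 not used here.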

Additional observations from a re-analysis of the deposited data

How the results depend on the processing

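No receptor gene was called in any of 16 alternative fits, and over 143 values of the 9 receptors 130 kept their direction. *Csf2ra* and *Il6ra* were higher in the knockout in all 16 (log2 fold changes of 0.32 to 0.48 and 0.11 to 0.39). *Csf2ra* was the 1 receptor without overlap under plain library sizes and DESeq2's size factors too. With the replicate number as a block, *Csf2rb* was 0.058 and *Il3ra* −0.013, and with *Rn45s* as a covariate *Il6st* was 0.096. *Epor* kept its direction but moved from −0.21 to −0.64 with the block and −0.43 with limma-voom. Leaving out each mouse in turn gave ranges of −0.065 to 0.26 for *Csf1r*, −0.14 to 0.073 for *Csf2rb*, −0.18 to 0.13 for *Csf2rb2*, −0.20 to 0.32 for *Csf3r*, 0.069 to 0.50 for *Il3ra*, −0.24 to 0.27 for *Il6st* and −0.49 to 0.11 for *Epor*. The slope on *Rn45s* ranged from −0.49 to −0.41 for *Csf2rb* and from 0.32 to 0.76 for *Il6st*. The number of genes called among all was 2, against 21 with DESeq2, 41 without a filter on low counts, 1 with at least 10 counts in every mouse (which leaves out *Hdgfl2* and *Epor*), 1 with the replicate block, 8 with *Rn45s* as a covariate and 2 to 7 without 1 mouse, 7 of them without wild type replicate 1 and 4 without knockout replicate 1. The cause was not tested. Same-numbered mice did not deviate together (correlations −0.025, −0.21 and −0.16), and the block changed no receptor call. Depth limits *Epor* most, with 9 to 37 reads per mouse.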
